A study of Mus musculus with 6 samples.

Results

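The common gamma chain cytokine receptors are the surface receptors through which lymphoid cells read IL-2, IL-4, IL-7, IL-9, IL-15 and IL-21. They were taken here as 7 genes, matched by symbol among the 28048 genes of the count tables, and every one of them passed the filter of at least 15 cells that left 13599 genes. The 7 genes are Il2rg, the common gamma chain itself, and the ligand-specific chains Il7r, Il2rb, Il15ra, Il4ra, Il9r and Il21r. The levels of these chains were measured by single-cell combinatorial indexing RNA sequencing (sci-RNA-seq3), which reads RNA of fixed, permeabilised cells or nuclei without droplets, in mouse T cell progenitors made from bone marrow. The question was how the chains stood in cells that lack the enhancer that times activation of Bcl11b, the T cell commitment factor.

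There were 6 libraries, 1 for each pairing of genotype (WT or ΔTE) and sorted starting population (DN1, DN2a or DN2b). All mice were C57BL/6, between 2 and 4 months old and of both sexes, and both genotypes carried a Bcl11b-YFP reporter on both copies of Bcl11b. ΔTE mice lacked in addition the distal timing enhancer on both copies. CD117-enriched progenitors pooled from several mice per genotype were grown on OP9-DL1 stroma, a mouse stromal line that presents a Notch ligand. Cells were then sorted as DN1 (CD44+CD25-), DN2a (CD44+CD25+Bcl11b-) or DN2b (CD44+CD25+Bcl11b+) and kept on fresh stroma for 4 days before sequencing. CD25, the protein of Il2ra, was thus a sorting marker. By the methods of the study, T cell cultures held Flt3-L and IL-7, and the experiments that made NK cells and innate lymphoid cells (ILCs), the single-cell one among them, held IL-7, IL-2, SCF and IL-15, all but SCF being ligands of the receptors described here. The labels name no cytokine.

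Every receptor of the family pairs the common gamma chain with at least 1 chain that sets the ligand. Il7r pairs with it to read IL-7, the survival signal of early T cell and ILC progenitors. Il2rb pairs with it to read IL-15 and, with Il2ra added, IL-2, and is known as a chain of NK cells and some ILCs. Jak1 and Jak3 bind the chains, STAT5 proteins carry the signal of IL-2, IL-7, IL-9 and IL-15, and Cish is a target of STAT5 that damps the same receptors.

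Barcodes were kept with 200 genes or more, up to 2000 UMIs and no more than 30% of UMIs from mitochondrial genes, which left 60671 cells, 3401 to 19489 per library, with 1715982 to 9041255 UMIs per library and a median of 386 to 485 UMIs per cell. Levels are given as CPM, the UMIs of a gene per 1000000 UMIs of the kept cells, with exact 95% Poisson intervals that cover counting error only. No barcode was shared between libraries. Bcl11b itself stood at 89.4 to 539.6 CPM in ΔTE and 235 to 856 CPM in WT libraries, and was lower in ΔTE for each start. The reverse transcription of a library was split over 3 wells. The labels do not say whether these hold parts of a single culture, and they were not taken as replicates. 1 well stood apart: in B02 of the ΔTE DN2a library, 14.1% of cells fell in the stroma-marker group, against 3.13% and 1.94% in its other wells, and its log2 CPM correlated with theirs at r = 0.882 and 0.890, against 0.979 between those 2 (7972 genes). Ratios of ΔTE to WT DN2a are therefore also given without B02 for each chain. The WT DN2a library had 10.0% of cells in the stroma-marker group and 14.1% mitochondrial UMIs, where the others had 1.76% to 6.53% and 21.3% to 23.4%.

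Over all libraries, the chains spanned more than an order of magnitude per length of transcript. Per kilobase of annotated exon, the level was 82.0 CPM for Il2rg, 24.6 for Il7r, 8.60 for Il4ra, 5.09 for Il15ra, 2.41 for Il21r, 1.63 for Il2rb and 1.48 for Il9r. The first 5 of these differed from their neighbours beyond counting error, whereas Il2rb and Il9r did not, with 222 and 232 UMIs in all. Nuclear RNA also holds introns, and per kilobase of the whole gene the same 4 chains led, at 50.5, 4.70, 1.89 and 0.779 CPM, followed by Il9r at 0.575, Il2rb at 0.437 and Il21r at 0.266. The order of the lowest 3 thus depends on the length taken.

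On GRCm38, Il2rg (ENSMUSG00000031304) lies at chrX:101264378-101268255, and Il7r (ENSMUSG00000003882) and Il2rb (ENSMUSG00000068227) lie on the same chromosome at chr15:9505788-9530176 and chr15:78479256-78495271. Il4ra (ENSMUSG00000030748) at chr7:125552120-125579474 and Il21r (ENSMUSG00000030745) at chr7:125603429-125633570 are neighbours on 1 strand. Il9r (ENSMUSG00000020279) lies at chr11:32187541-32200279 and Il15ra (ENSMUSG00000023206) at chr2:11705290-11734317. The annotation places Gm20489 over Il2rg, and that gene had 0 UMIs in every library. Gm44876 overlaps Il4ra.

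Promoter letters are shown for the 4 chains whose promoters held a match to a searched motif. RefSeq promoters of GRCm38.p6, from 250 bases before to 50 bases after a start, were at hand for 6 of the 7 genes, all but Il2rb. These 6 genes had 7 promoters, so the counts of genes below and the shares of all promoters are in unlike units. The letters of a Runx core (TGTGGT) were found on either strand in the promoters of Il7r, Il2rg, Il9r and Il21r, that is in 4 of 6 genes, and in 16.8% of all 32851 promoters. An ETS motif (CAGGAAGT) was found in Il7r only and in 3.33% of all promoters, a GATA motif (AGATAAG) in Il9r only and in 3.04%, and a T-box motif (AGGTGTGA) in 0 of the 6 genes and in 1.28%. The motifs were searched separately, share no overlap in the windows printed, and a match is a description of the letters only. Each window below holds 30 bases in the direction of the gene, with the match in capitals.
Il7r, ETS, chr15:9529907-9529936, minus strand: cttttgctcagACTTCCTGtttctggcact
Il7r, Runx, chr15:9529856-9529885, minus strand: tagttccctgtcTGTGGTttagcaggcaca
Il2rg, Runx, chrX:101268465-101268494, minus strand: ggaatgatggtgTGTGGTgggggtgggtgt
Il9r, Runx, chr11:32200345-32200374, minus strand: tctgtgatgtctTGTGGTttttgatgtggg
Il9r, GATA, chr11:32200292-32200321, minus strand: gactcatctctCTTATCTcctggatcaggt
Il21r, Runx, chr7:125603384-125603413, plus strand: ggggcactgtttACCACAtcccctccccac
The Il7r matches lie 49 bases before and 3 bases after the start, the Il9r matches 83 and 31 bases before it, and those of Il21r and Il2rg 33 and 227 bases before it. These starts are those of the RefSeq promoters. For Il7r both windows lie inside the gene span given above, so its RefSeq start is not the outer end of that span.

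The chains differed in how they moved with the start and the genotype. Il2rb, the chain of the IL-2 and IL-15 receptors, was higher in ΔTE from each start. Il7r was modestly higher in ΔTE from each start, Il2rg was higher in ΔTE from the DN2b start, and Il4ra varied little. Il15ra fell away after DN1 in both genotypes. With 1 library per condition no test was run within a start, so a gene was counted there as called when its CPM ratio was past 1.5-fold with at least 20 UMIs in the pair, and a second rule asked that the 3 wells of one library all lie above or below the 3 wells of the other. More cells that carry a chain and more RNA per cell cannot be told apart in these sums.

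**Figure D1:**
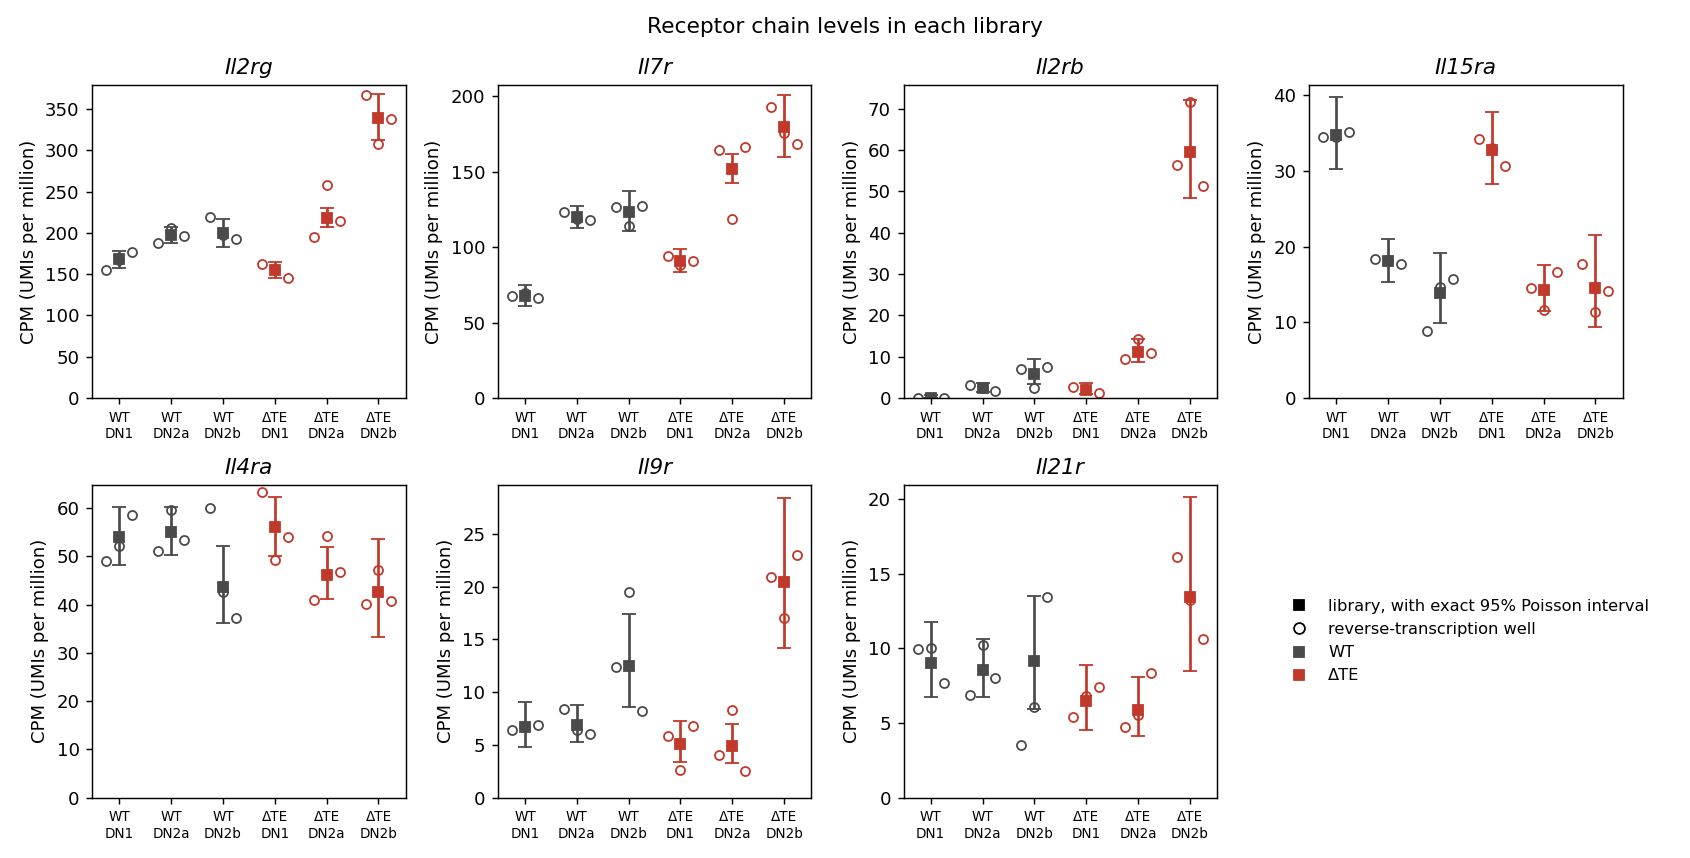
Level of each receptor chain in each library, in CPM on a linear axis from 0. Squares are libraries with exact 95% Poisson intervals and open circles are the 3 reverse-transcription wells of each, WT in grey and ΔTE in red. Il2rb runs from 0 CPM in WT DN1 to 59.4 CPM in ΔTE DN2b, and Il15ra is highest in the DN1 libraries of both genotypes.

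Il2rg, the shared chain, stood at 168 CPM (158 to 178) in WT DN1, 197 CPM (188 to 207) in WT DN2a and 199 CPM (183 to 217) in WT DN2b. In ΔTE it stood at 155 CPM (145 to 165) from DN1, 218 CPM (207 to 229.7) from DN2a and 339 CPM (312 to 368) from DN2b. The ΔTE DN2b library was the highest, and its lowest well at 308 CPM lay above the highest well of any other library. Between the genotypes, the log2 ratio (ΔTE over WT) was -0.12 (-0.25 to 0.02) for DN1, 0.14 (0.04 to 0.25) for DN2a and 0.77 (0.60 to 0.94) for DN2b, the last being 1.70-fold. Without B02 the DN2a ratio was 0.03 (-0.08 to 0.15), so that the small DN2a difference rested on that well.

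Il7r, the IL-7 receptor chain, stood at 67.8 CPM (61.3 to 74.7) in WT DN1, 119.8 CPM (113 to 127) in WT DN2a and 123 CPM (111 to 137) in WT DN2b. In ΔTE it stood at 91.1 CPM (83.6 to 99.1) from DN1, 152 CPM (142 to 162) from DN2a and 179 CPM (160.0 to 201) from DN2b. ΔTE was the higher genotype for each start, and the wells did not overlap for DN1 and DN2b. The log2 ratio was 0.43 (0.24 to 0.62), 0.34 (0.22 to 0.47) and 0.54 (0.31 to 0.77) in order of start, under 1.5-fold each time. In DN2a the wells overlapped through B02, at 118 CPM against 165 and 166 CPM in its other wells, and the ratio without it was 0.46 (0.33 to 0.60). DN1 cells of both genotypes held the least Il7r.

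Il2rb had 0 UMIs in WT DN1, which allows up to 0.501 CPM (3 UMIs), 21 UMIs in WT DN2a (2.32 CPM, 1.44 to 3.55) and 16 in WT DN2b (5.86 CPM, 3.35 to 9.52). In ΔTE it had 12 UMIs from DN1 (2.04 CPM, 1.05 to 3.56), 71 from DN2a (11.2 CPM, 8.78 to 14.2) and 102 from DN2b (59.4 CPM, 48.5 to 72.2). ΔTE exceeded WT for each start, and from DN2a and DN2b every ΔTE well lay above every WT well. The log2 ratio was 2.27 (1.56 to 3.05) for DN2a, or 4.84-fold, and 3.34 (2.57 to 4.20) for DN2b, or 10.1-fold. For DN1 the pair held too few UMIs for a call, and against the floor of 3 UMIs in the WT library the ΔTE level was at least 4.06-fold higher. The exact interval of the log2 ratio, which also counts the error of the 12 ΔTE UMIs, began at 1.498. Without B02 the DN2a ratio was 2.10 (1.33 to 2.92).

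Il15ra, which presents IL-15 to cells that carry Il2rb, stood at 34.7 CPM (30.2 to 39.8) in WT DN1, 18.03 CPM (15.4 to 21.02) in WT DN2a and 13.9 CPM (9.85 to 19.1) in WT DN2b. In ΔTE it stood at 32.7 CPM (28.3 to 37.7) from DN1, 14.2 CPM (11.5 to 17.5) from DN2a and 14.6 CPM (9.43 to 21.5) from DN2b. The genotypes lay close together for each start, with log2 ratios of -0.08, -0.34 and 0.07. DN1 stood apart from the later starts in both genotypes. The ΔTE wells lay below the WT wells for DN1 and DN2a, by amounts within the counting intervals. Without B02 the DN2a ratio was -0.24 (-0.66 to 0.18).

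Il4ra, the chain of IL-4 and, with Il13ra1, of IL-13, was the steadiest, at 53.9, 55.1 and 43.6 CPM in WT and 56.0, 46.2 and 42.5 CPM in ΔTE for DN1, DN2a and DN2b. Its log2 ratios were 0.05 (DN1), -0.25 (DN2a, -0.47 to -0.04) and -0.03 (DN2b). The wells of the genotypes overlapped for each start, and without B02 the DN2a ratio was -0.36 (-0.60 to -0.11).

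Il9r, the chain of the mast cell and ILC2 cytokine IL-9, had 40, 62 and 34 UMIs in WT, or 6.68, 6.86 and 12.5 CPM, and 30, 31 and 35 UMIs in ΔTE, or 5.09, 4.91 and 20.4 CPM. It was highest from DN2b in both genotypes. The DN2b log2 ratio of 0.71 (-0.01 to 1.44) was past 1.5-fold, but its interval held 0 and the wells overlapped, at 17.0 to 23.0 CPM in ΔTE and 8.20 to 19.5 CPM in WT. The DN2a ratio was -0.48 (-1.15 to 0.16), and -0.95 (-1.84 to -0.14) without B02.

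Il21r, the IL-21 chain, had 54, 77 and 25 UMIs in WT, or 9.01, 8.52 and 9.16 CPM, and 38, 37 and 23 UMIs in ΔTE, or 6.45, 5.86 and 13.4 CPM. The log2 ratio was -0.48, -0.54 and 0.55 in order of start. At this depth the differences were within counting error, and without B02 the DN2a ratio was -0.51 (-1.20 to 0.14).

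Counted over the family, 0 of the 6 chains with enough UMIs were called in ΔTE against WT for DN1, where 8.20% of 11450 genes were called (3.16% higher and 5.04% lower). For DN2a, 1 of 7 chains was called, Il2rb, beside 14.1% of 12214 genes (2.62% higher and 11.5% lower). For DN2b, 3 of 7 chains were called, Il2rb, Il2rg and Il9r, all higher, beside 14.4% of 10073 genes (5.57% higher and 8.83% lower). The median log2 ratio of the chains was -0.10, -0.25 and 0.55 in order of start, and that of all genes tested -0.00, -0.15 and -0.02. The share of chains called was thus near that of all genes for DN2a and above it for DN2b.

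By the well rule, in DN1 Il7r lay above (8.24% of all genes) and Il15ra and Il21r lay below (8.24% also). In DN2a Il2rb lay above (2.90%) and Il15ra below (16.2%). In DN2b Il2rg, Il7r and Il2rb lay above (7.71%) and 0 chains lay below (9.31%). Il2rg and Il2rb in DN2b and Il2rb in DN2a met both rules. The share of all genes higher by both is at most the share past 1.5-fold, 5.57% for DN2b and 2.62% for DN2a.

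Genotype was then tested over the 3 starts, with start and genotype as terms in edgeR's quasi-likelihood test on the 6 library sums, which leaves 2 residual degrees of freedom. This fit was chosen after seeing the data. The libraries of a genotype come from pooled progenitors of that genotype, so the pool and the genotype cannot be told apart. The start term takes up differences between starts, which leaves the variation of the genotype difference from start to start as the spread. With so few degrees of freedom, edgeR draws each gene's spread partly from other genes. Its SEs and p-values thus need not reflect the variation of a single gene. For Il2rg the SE was 0.09 by edgeR and 0.26 by DESeq2. Of the 7 chains 3 were higher in ΔTE, Il2rb, Il7r and Il2rg, and 0 lower, where 2.75% of 13178 genes were higher and 3.57% lower. Il2rb had a log2 fold change of 2.96 ± 0.29 (SE, adjusted p = 8.56e-10 by edgeR) and Il7r of 0.49 ± 0.07 (SE, adjusted p = 5.51e-06 by edgeR), each higher in 3 of 3 starts. Il2rg had 0.29 ± 0.09 (SE, adjusted p = 0.0407 by edgeR), was higher in 2 of 3 starts, and lost its call without well B02 (0.264), without the stroma-marker cells (0.0705), without the DN2b pair (0.576), with another normalization (RLE, 0.0685) and with DESeq2. Il4ra, Il9r, Il15ra and Il21r had -0.03, -0.02, -0.11 and -0.21 (adjusted p = 0.735 to 0.986 by edgeR). Without the start term 0 genes were called and 421 had an unadjusted p under 0.05 (edgeR).

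**Figure D2:**
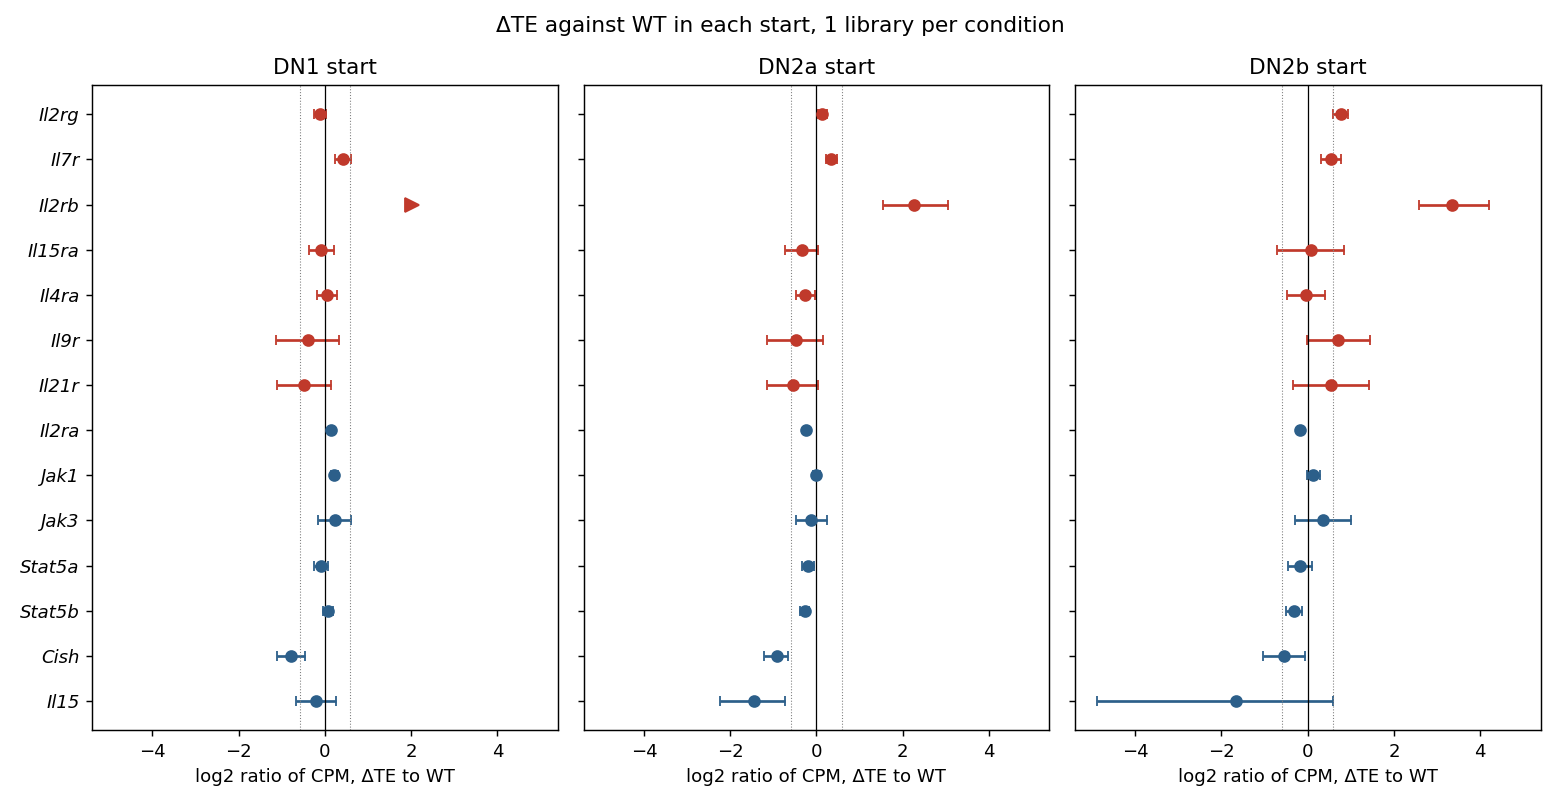
Log2 ratio of CPM in ΔTE to WT for each start, with exact 95% conditional intervals for counting error. Receptor chains are red, partner, kinase, STAT and target genes blue, and dotted lines mark 1.5-fold. The triangle for Il2rb in DN1 is its level against the 3-UMI floor of a WT library with 0 UMIs. The highest ratio is that of Il2rb in DN2b, at 3.34.

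The neighbouring starts were compared within each genotype; these comparisons share libraries with each other and with those above. From DN1 to DN2a, Il7r and Il2rb were higher and Il15ra lower in both genotypes. These 3 of 7 chains were called in WT, where 22.9% of genes were called (18.8% higher, 4.16% lower), and the same 3 of 7 in ΔTE, beside 17.5% (12.5% higher, 4.97% lower). Il7r had a log2 ratio of 0.82 in WT and 0.74 in ΔTE, and Il15ra of -0.95 and -1.20. Il2rb had a log2 ratio of 2.47 (1.57 to 3.48) in ΔTE and was at least 4.64-fold higher in WT DN2a than the floor of 3 UMIs in the WT DN1 library, with an interval of the log2 ratio that began at 1.79. Il2rg, under 1.5-fold, had 0.23 in WT and 0.49 in ΔTE.

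From DN2a to DN2b, 2 of 7 chains were called in WT, beside 20.4% of genes (2.26% higher, 18.1% lower), and 4 of 7 in ΔTE, beside 19.2% (4.51% higher, 14.7% lower). All were higher in DN2b. Il2rb had a log2 ratio of 1.34 (0.30 to 2.34) in WT and 2.40 (1.95 to 2.86) in ΔTE, and Il9r of 0.86 (0.21 to 1.49) and 2.06 (1.32 to 2.80). Il2rg at 0.64 (0.50 to 0.78) and Il21r at 1.19 (0.38 to 1.98) were called in ΔTE alone, against 0.01 and 0.10 in WT. With 1 library each, no residual spread is left to test whether these steps differ between the genotypes. The median log2 ratio of the chains was 0.04 in WT and 0.64 in ΔTE, and that of all genes -0.20 and -0.08.

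In the same fit over both genotypes, Il7r and Il2rb were higher and Il15ra lower in DN2a than in DN1, beside 13.8% of genes higher and 11.6% lower. Il7r had a log2 fold change of 0.68 ± 0.08 (SE, adjusted p = 3.71e-08 by edgeR), Il2rb of 2.76 ± 0.44 (SE, 6.53e-06) and Il15ra of -1.16 ± 0.14 (SE, 3.32e-08). From DN2a to DN2b, 4 of 7 chains were higher and 0 lower, beside 3.90% and 5.54% of genes. The fit averages this step over the genotypes. By library, its log2 ratio was 0.01 in WT and 0.64 in ΔTE for Il2rg, and 0.04 and 0.24 for Il7r. Il2rb had 2.23 ± 0.29 (SE, adjusted p = 2.89e-07 by edgeR), Il9r 1.53 ± 0.30 (SE, 0.000412), Il2rg 0.47 ± 0.11 (SE, 0.00363) and Il7r 0.28 ± 0.09 (SE, 0.0407). Without B02 the DN2b steps of Il7r and Il2rg lost their calls (adjusted p = 0.608 and 0.105 by edgeR), Il7r also without the stroma-marker cells, and DESeq2 called neither of these nor the DN2b step of Il2rb.

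A list of 32 genes of the pathway (partner chains, ligands, kinases, STATs, feedback regulators and targets) was taken next to the receptors. In ΔTE against WT, 1 of 24 tested genes was called for DN1 (8.20% of all genes), 2 of 25 for DN2a (14.1%) and 0 of 24 for DN2b (14.4%), all lower. Its median log2 ratio was 0.06, -0.17 and -0.06, near that of all genes. The called genes were Cish (DN1 and DN2a) and Il15 (DN2a).

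Cish stood at 37.1, 45.0 and 43.2 CPM in WT and 21.4, 23.7 and 29.7 CPM in ΔTE, for DN1, DN2a and DN2b. It was lower in ΔTE for each start, with log2 ratios of -0.79 (-1.12 to -0.47), -0.92 (-1.20 to -0.65) and -0.54 (-1.04 to -0.05), and the wells did not overlap for DN1 and DN2a. Cish was thus lower in the same libraries in which Il7r and Il2rb were higher. Without B02 its DN2a ratio was -0.88 (-1.20 to -0.58). Over the 3 starts 2 of 27 pathway genes were called, where 2.75% of 13178 genes were higher and 3.57% lower. Cish had a log2 fold change of -0.73 ± 0.11 (SE, adjusted p = 1.01e-05 by edgeR), lower in 3 of 3 starts. Socs1, named after its value was seen, had 0.40 ± 0.09 (SE, adjusted p = 0.0036 by edgeR), higher in 3 of 3. DESeq2 called Cish (adjusted p = 0.0118) but not Socs1 (adjusted p = 0.245). In the cells that no marker list claimed, the log2 ratios of Cish were -0.87, -0.92 and -0.60.

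Il2ra, the alpha chain of the IL-2 receptor and part of the sort, was far above the chains at 1653, 3388 and 2716 CPM in WT and 1826, 2857 and 2403 CPM in ΔTE, with log2 ratios of 0.14, -0.25 and -0.18. Il15 fell with the start, at 14.7, 8.63 and 3.66 CPM in WT and 12.7, 3.17 and 1.17 CPM in ΔTE, on 88, 78, 10, 75, 20 and 2 UMIs. Its DN2a log2 ratio was -1.45 (-2.23 to -0.72), the lowest of the tested pathway genes there. Il7 was at 0 to 1.34 CPM in each library, with 21 UMIs in the stroma-marker group and 7 in unassigned cells.

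None of the 4 signalling genes Jak1, Jak3, Stat5a and Stat5b was past 1.5-fold between the genotypes. Jak1 stood at 337, 402 and 359 CPM in WT and 393, 402 and 394 CPM in ΔTE, and Jak3 at 18.4, 18.7 and 17.2 CPM in WT and 21.5, 17.3 and 22.1 CPM in ΔTE. Stat5a stood at 108, 132 and 108 CPM in WT and 101, 116 and 95.6 CPM in ΔTE. Stat5b stood at 216, 269.5 and 246 CPM in WT and 227, 223 and 198 CPM in ΔTE. From DN1 to DN2a, 6 of 25 pathway genes were called higher (Il2ra, Il4, Pim2, Socs1, Socs2 and Socs3) and 1 lower (Il15) in each genotype, beside 18.8% of all genes higher and 4.16% lower in WT and 12.5% and 4.97% in ΔTE. From DN2a to DN2b 2 were higher (Il4 and Pim2) and 1 lower (Il15) in each, beside 2.26% and 18.1% in WT and 4.51% and 14.7% in ΔTE. The counting intervals of Pim2 held 0 in each of these 4 comparisons, as did those of Il4 from DN2a to DN2b in both genotypes and of Il15 there in ΔTE (2 against 20 UMIs).

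Cells were then placed in groups by marker lists that hold no receptor or pathway gene, a cell joining a group with at least 2 UMIs of its list and more than of every other list. The groups held 1905 T-marker, 3608 ILC/NK-marker, 796 myeloid-marker, 3381 progenitor-marker, 2733 mast-marker, 3472 stroma-marker and 18 B-marker cells, and 44758 cells stayed unassigned. Genes kept out of the lists served as a check, counted as higher than in unassigned cells beyond counting error. In T-marker cells 4 of 5 were higher, at most 2.28-fold (Bcl11b), with Tcf7 at 1.03-fold. In ILC/NK-marker cells 4 of 5 were higher (Rora, Id2, Zbtb16 and Gata3), with Gzma at 0.991-fold. Rora and Id2 do not set that group apart, since Rora stood at 202 CPM in it and 236 CPM in stroma-marker cells, and Id2 at 151 CPM in it and 297 CPM in myeloid-marker cells. All 5 were higher in myeloid-marker cells (4.89-fold to 31.3-fold) and in stroma-marker cells (22.1-fold to 166-fold), and just 1 of 4 in progenitor-marker cells. The ILC/NK group is loose, since 2325 of its cells held just 2 list UMIs and 5 of the 18 genes (Nkg7, Gzmb, Cd160, Klrb1f and Ccl5) gave 89.6% of the list's UMIs. A narrower set of 288 cells, by the other 13 genes, was formed after seeing those levels and is described without a test.

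Each group but the 18 B-marker cells was compared with the unassigned cells of its own library on UMIs summed per library, in edgeR's quasi-likelihood test with Benjamini-Hochberg adjustment over all genes. The p-values ask whether a difference held over 6 libraries that differ in start and genotype. In ILC/NK-marker cells 3 of 7 chains rose, Il2rb, Il9r and Il2rg, where 1.61% of 12171 genes rose and 1.21% fell. In myeloid-marker cells 2 of 7 rose, Il2rb and Il21r, beside 5.06% of genes higher and 3.19% lower. In stroma-marker cells 4 of 7 fell, Il2rg, Il7r, Il9r and Il2rb, beside 29.4% lower and 27.0% higher.

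Il2rb stood at 40.4 CPM in ILC/NK-marker and 4.73 CPM in unassigned cells, with a log2 fold change of 2.69 ± 0.29 (SE, 6 libraries, adjusted p = 3.56e-18 by edgeR). By library, ILC/NK-marker cells held 0, 3 and 8 UMIs in WT and 7, 35 and 41 in ΔTE, that is 0, 5.34, 33.4, 17.2, 71.0 and 182 CPM, above unassigned cells in each of the 5 libraries with any. In the 288 cells of the narrower set it stood at 243 CPM (175 to 328), the highest of any group.

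Il9r stood at 18.1 CPM in ILC/NK-marker and 6.88 CPM in unassigned cells, with a log2 fold change of 1.23 ± 0.32 (SE, adjusted p = 0.00663 by edgeR), and was higher in 6 of 6 libraries. This call was lost without the ΔTE DN2a library (adjusted p = 0.0652 by edgeR) or the ΔTE DN2b library (0.112). Il2rg stood at 259 and 204 CPM, with 0.26 ± 0.08 (SE, adjusted p = 0.0499 by edgeR), at the edge of the threshold, and was lost without the WT DN2a, WT DN2b, ΔTE DN2a or ΔTE DN2b library (0.0757, 0.0579, 0.339 and 0.284) and with DESeq2. In the narrower set Il2rg stood at 457 CPM (361 to 569) and Il7r at 277 CPM (205 to 368), against 133 CPM of Il7r in all ILC/NK-marker cells. Of the 25 pathway genes tested in ILC/NK-marker cells, 0 rose and 3 fell, beside 1.61% of all genes higher and 1.21% lower. The 3 were Stat5a (-0.38, adjusted p = 0.0286 by edgeR), Il2ra (-0.27, 0.000533) and Bcl2, a survival factor (-0.24, 0.00576).

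Il2rb stood at 20.9 CPM in myeloid-marker cells, with a log2 fold change of 2.46 ± 0.64 (SE, adjusted p = 0.00282 by edgeR), on 10 UMIs. All 10 lay in the 286 cells that reached the list only with Ccr2, a chemokine receptor gene that is not restricted to myeloid cells (56.8 CPM, 27.2 to 104), and the 510 cells with at least 2 other myeloid UMIs held 0, which allows up to 9.95 CPM. That split was made after seeing the data, and without the ΔTE DN2a library the Il2rb call was lost (adjusted p = 0.104 by edgeR). Il21r stood at 29.3 CPM, with 1.82 ± 0.54 (SE, adjusted p = 0.0122 by edgeR), and 13 of its 14 UMIs lay in the 510 cells (43.1 CPM, 23.0 to 73.7). The Il21r call was lost without the WT or the ΔTE DN1 library (adjusted p = 0.192 and 0.417 by edgeR), which held 5 and 7 of those UMIs. Il4ra stood at 100.5 CPM against 51.8 CPM in unassigned cells, with 0.78 ± 0.30 (SE, adjusted p = 0.0932 by edgeR).

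In stroma-marker cells, Il2rg stood at 57.4 CPM, with a log2 fold change of -1.70 ± 0.17 (SE, adjusted p = 7.08e-22 by edgeR), and Il7r at 38.1 CPM, with -1.74 ± 0.20 (SE, adjusted p = 2.07e-17 by edgeR), each lower in 6 of 6 libraries. Il9r stood at 1.32 CPM, with -2.23 ± 0.74 (SE, adjusted p = 0.00557 by edgeR, and 0.0619 without the WT DN2a library). Il2rb had 0 UMIs there, which allows up to 1.32 CPM (adjusted p = 0.000912 by edgeR, not called by DESeq2). Lymphoid RNA was not absent from these barcodes, since Bcl11b stood at 123 CPM in them and at 394 CPM in unassigned cells, about the same proportion as for Il2rg and Il7r. Il7, the ligand made by stroma, rose there by 4.94 on the log2 scale (adjusted p = 1.49e-14 by edgeR).

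In T-marker cells 0 of 7 chains were called and 0 had an unadjusted p under 0.05, beside 0.928% of genes higher and 0.961% lower. In progenitor-marker cells 0 of 7 were called, and 1 had an unadjusted p under 0.05, Il4ra, with a log2 fold change of 0.32, beside 0.437% of genes higher and 0.478% lower. DESeq2 called 0 of the 3 chains it gave an adjusted p in T-marker cells and 0 of the 5 in progenitor-marker cells, and gave the other chains none. In mast-marker cells, tested after seeing the data, 0 of 7 were called and 0 had an unadjusted p under 0.05, beside 0.132% of genes higher and 0.0743% lower (edgeR), and DESeq2 gave an adjusted p to 1 chain and called 0. Il9r stood at 10.9 CPM there, with a log2 fold change of 0.74. Il2rb had 5 UMIs in T-marker cells (4.52 CPM), all in ΔTE libraries.

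**Figure D3:**
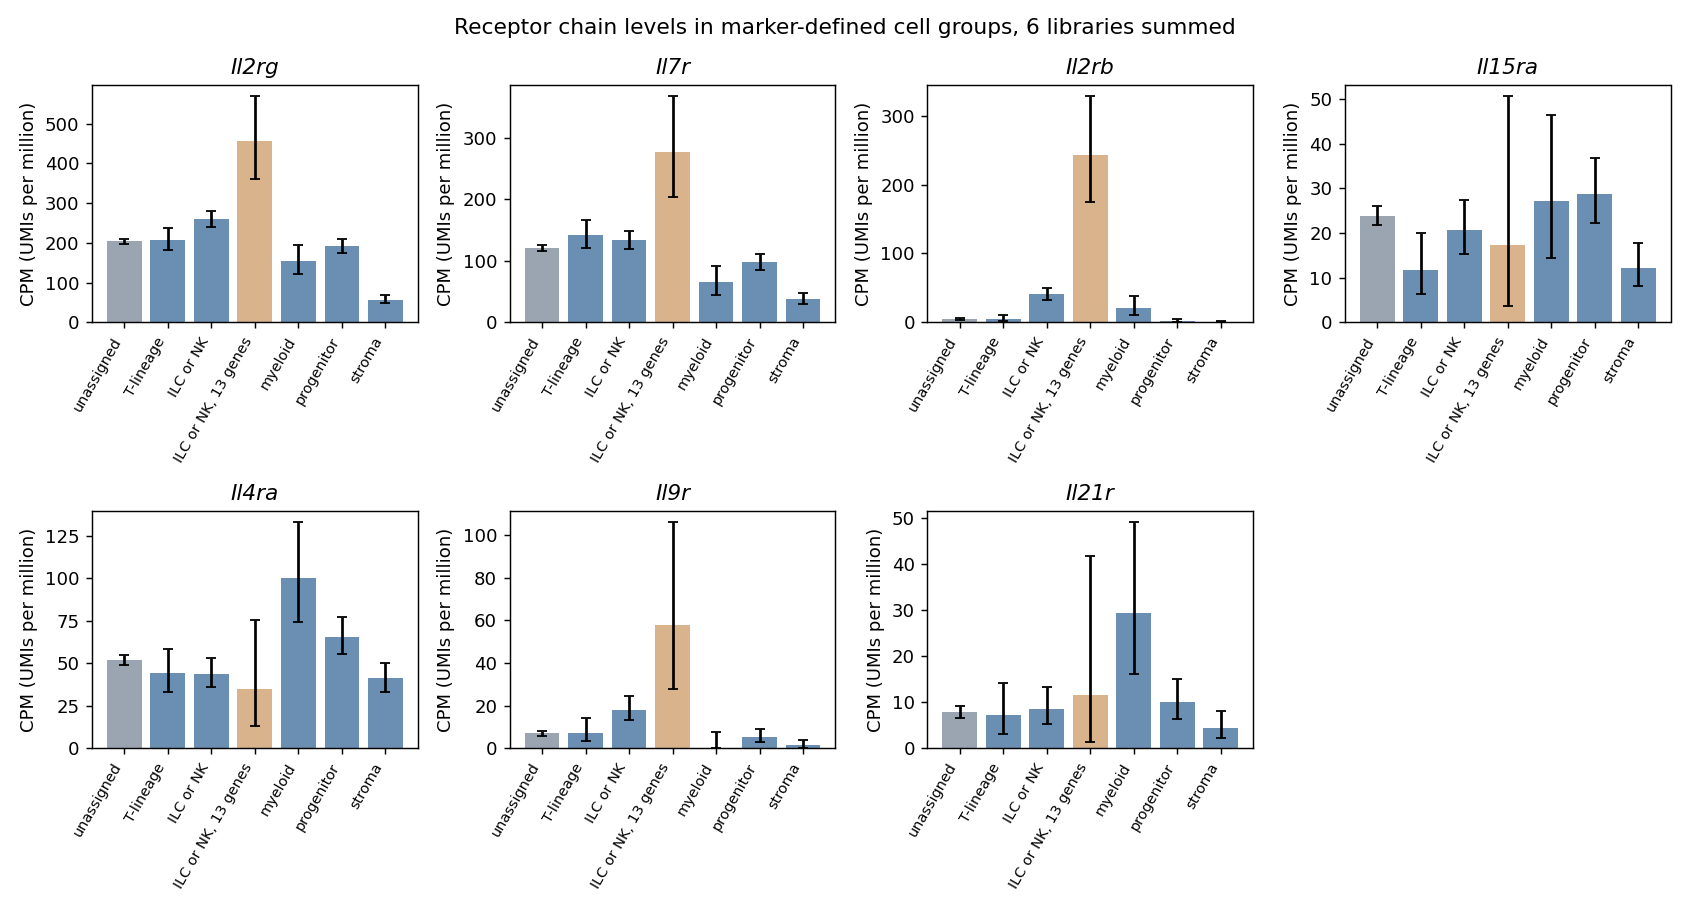
Level of each receptor chain in marker-defined cell groups, all 6 libraries summed, in CPM from 0, with exact 95% Poisson intervals for counting error. Grey bars are unassigned cells, blue bars groups of the marker lists and the tan bar the narrower ILC/NK set of 288 cells, formed after seeing the data. Il2rb is at 243 CPM in the narrower set and 0 in stroma-marker cells.

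The ΔTE and WT levels were then compared inside the groups. Il2rb in unassigned cells had 3 UMIs in ΔTE and 0 in WT from DN1, 6.003 against 2.34 CPM from DN2a (log2 ratio 1.36, 0.36 to 2.42, and 1.54, 0.50 to 2.63, without B02) and 45.9 against 2.75 CPM from DN2b (4.06, 2.75 to 5.74). In ILC/NK-marker cells it had 7 UMIs against 0 from DN1, 71.0 against 5.34 CPM from DN2a (3.73, 2.07 to 6.08, and 3.13, 1.33 to 5.55, without B02) and 182 against 33.4 CPM from DN2b (2.44, 1.33 to 3.75). ΔTE was the higher genotype in both groups from DN2a and DN2b, so that the Il2rb difference was not limited to cells that the marker list claimed. Unassigned cells can still include ILC or NK cells, since 11935 kept cells held just 1 UMI of that list. Whether the difference reached beyond ILC and NK cells was therefore not tested. The share of cells in the ILC/NK-marker group was itself 11.7% in ΔTE and 6.88% in WT from DN2b, at a median of 426 and 455 UMIs per cell. The narrower set held 111 cells in ΔTE DN2b and 32 in WT DN2b, and 100 and 25 from DN2a.

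Without the cells of the narrower set, the Il2rb log2 ratio was 1.75 (0.99 to 2.56) from DN2a and 3.22 (2.42 to 4.12) from DN2b. Without the stroma-marker cells it was 2.19 and 3.30. Il2rg from DN2b had a log2 ratio of 0.62 (0.41 to 0.83) in unassigned cells and 0.73 (0.56 to 0.91) without the narrower set. Il7r in unassigned cells had 0.54, 0.28 and 0.60 in order of start, close to its ratios in all cells.

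**Figure D4:**
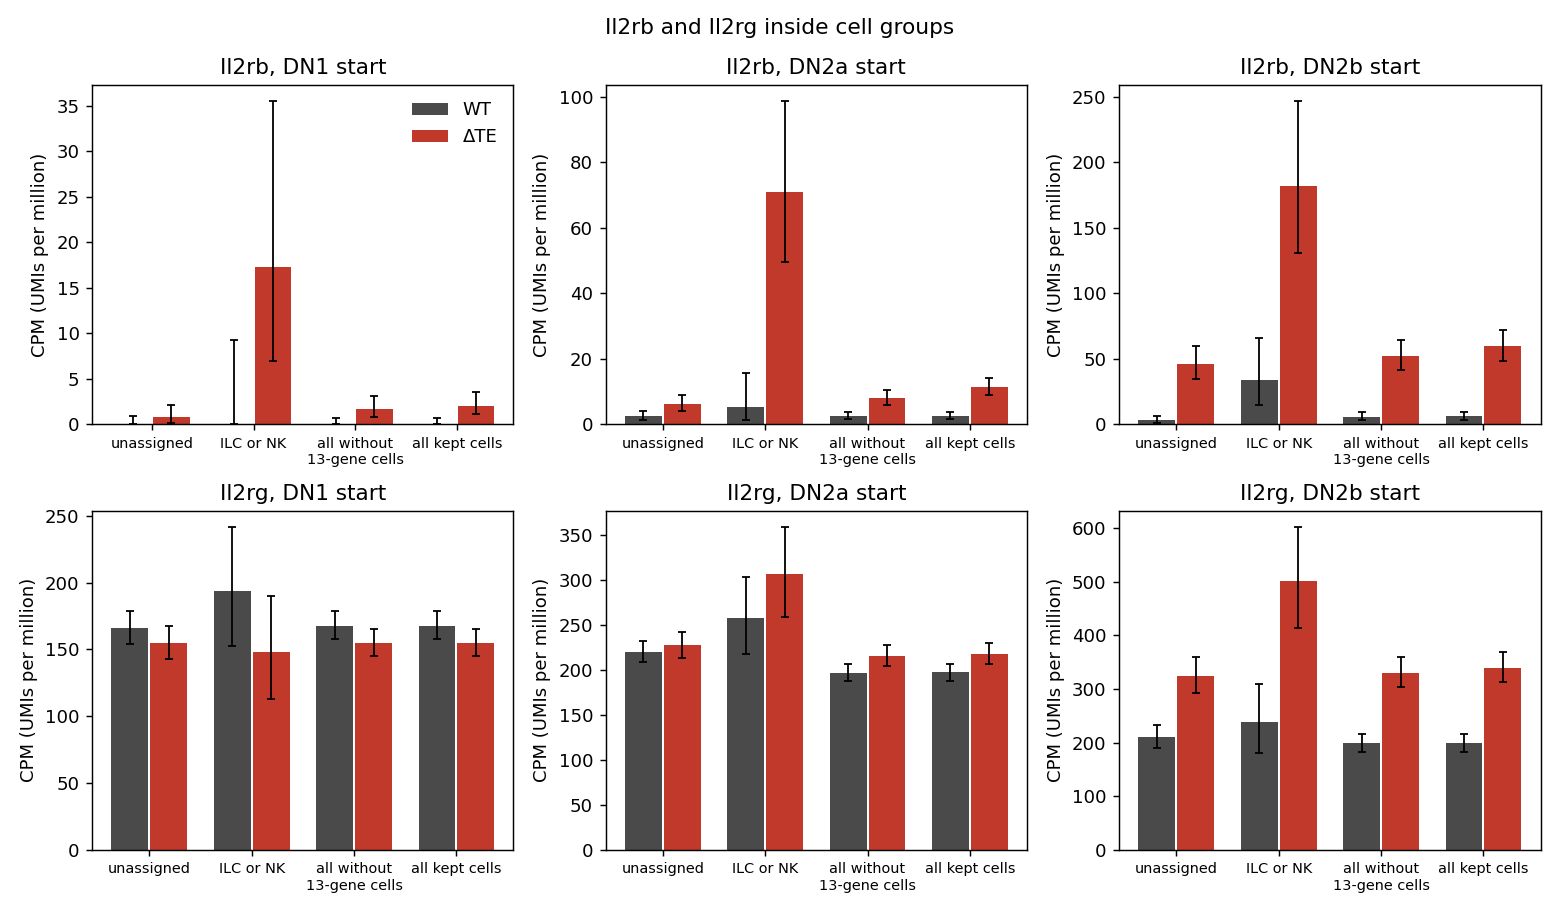
Level of Il2rb (upper row) and Il2rg (lower row) in CPM, from 0, in WT (grey) and ΔTE (red) cells of each start, for unassigned cells, ILC/NK-marker cells, all kept cells without the narrower 13-gene set, and all kept cells. Bars are 1 library each with exact 95% Poisson intervals. Il2rb is higher in ΔTE in each set from DN2a and DN2b, and in DN2b unassigned cells stands at 45.9 against 2.75 CPM.

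Il2rb was seen in 195 cells, 0, 18 and 14 in WT and 12, 69 and 82 in ΔTE, and 21 of them held more than 1 UMI of it. Of these cells 81 were ILC/NK-marker cells, 89 unassigned, 9 myeloid-marker, 7 mast-marker, 5 T-marker, 4 progenitor-marker and 0 stroma-marker. An Il2rg UMI was seen in 36 of them, an Il2ra UMI in 85 and an Il7r UMI in 25, at a median of 479 UMIs per cell. The cells were chosen by that UMI and most come from ΔTE, so the following levels, in CPM over the summed cells, are a description.

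NK and ILC genes stood far higher in the 195 cells than in the other 60476. Klrd1, an NK receptor gene, was at 250.2 against 5.29 CPM, Xcl1, a chemokine of NK cells, at 277 against 2.28 CPM, and Id2, a factor that all ILCs need, at 465 against 52.2 CPM. Zbtb16, which encodes PLZF, was at 1206 against 325 CPM, Rora at 286 against 65.7 CPM and Gata3 at 545 against 167 CPM. Of the T-lineage genes, Tcf7 was higher, at 670 against 432 CPM (log2 ratio 0.63, 0.29 to 0.96), while Bcl11b at 277 against 368 CPM (-0.41, -0.97 to 0.10) and Cd3g at 241 against 204 CPM (0.24, -0.36 to 0.79) were within counting error. Among the receptors, Il2rg was at 402 against 195 CPM and Il7r at 277 against 114 CPM, whereas Il2ra was lower, at 1349 against 2557 CPM.

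Across the 18 wells, genes were ranked by Pearson r of log2(CPM + 1) with each chain, among 7986 genes. Wells of 1 library were not taken as replicates and the libraries share start and genotype, so r is a description. Most like Il2rb were Tnfrsf9 (r = 0.97), a co-stimulatory receptor, then Ly6d, Id2 (both 0.95), Hmga2 (0.94) and Lef1 (0.93). Most like Il7r were Lef1 (0.94), Fam169b (0.94) and Pdcd1, Cd163l1 and Il17rb (each 0.93). Most like Il2rg were Selplg (0.91), Tmem64 and Id2 (both 0.90), Pld3 and Emb (both 0.89).

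The remaining chains had other companions. Most like Il15ra were Plxnc1 (0.93), P2ry14, Zfp760 (both 0.92), Rgs18 (0.91) and Herc4 (0.90). Most like Il4ra were Adprhl2 (0.87), Homer3 (0.86), Hsd17b4 (0.84), Jpt2 and Usp14 (both 0.77). Most like Il9r were Cd82 (0.87), Mthfd2 (0.85), Sesn3 (0.82), H2ax and Agfg1 (both 0.81). Most like Il21r, the least followed, were Elf4 (0.76), Zc3h7b (0.74), Spc25 (0.72), Chek1 (0.70) and Gid8 (0.67). Between members, Il2rb and Il7r gave r = 0.90, Il2rb and Il2rg 0.90 and Il7r and Il15ra -0.78, so that Il2rg, Il7r and Il2rb ran together over the wells and Il15ra ran opposite to Il7r.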

How the data were processed

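The authors deposited raw UMI counts per gene and cell for 6 libraries, with cell and gene annotations. The submitters' processing notes name mm9, and the aligner is not given in the sources used here. Gene coordinates and lengths came from GENCODE on GRCm38 by Ensembl ID (27924 of 28048 matched), and promoters from RefSeq (GRCm38.p6). No file held comparisons of the authors. From the counts, cells were filtered by the limits the study states, which left 60671 of the 85507 barcodes with 200 genes or more. The study counts more cells than this, so the cells are not the study's own set, and which step differs is not known. UMIs were summed per library, well and marker group, and CPM with exact 95% Poisson intervals and ratios with exact conditional binomial intervals were computed (Python 3.11.15, scipy 1.17.1). No doublet caller was run; the limit of 2000 UMIs removed the largest barcodes. Group sums of at least 20 cells, for genes of at least 20 UMIs, were tested across all genes with edgeR 4.0.16 (quasi-likelihood, TMM, library as a block, FDR 0.05; R 4.3.3), with DESeq2 1.42.0 as an alternative. Library sums were tested the same way with start and genotype as terms, and the mast-marker group as the other groups; both were added after seeing the data. The tests were checked on simulated data that gave every library the same baseline. That check did not try the terms for start and library. Nothing in the labels says that wells are separate cultures, so wells were never replicates. Named genes were all members, a fixed set of partners (Il2ra, Jak1, Jak3, Stat5a, Stat5b, Il7 and Il15), pathway genes past 1.5-fold with non-overlapping wells in ΔTE against WT or past the threshold in the ILC/NK group, and the 5 most like genes per chain among genes with at least 500 UMIs. The members and lists were chosen with earlier results of these data known. Alternatives were other cell filters, folds, UMI minimums, normalizations, group rules and leaving out each well or library.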

Additional observations from a re-analysis of the deposited data

Results flagged for a closer look

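The barcodes left out by the filters also held receptor UMIs, and ΔTE stood above WT there for several chains. In barcodes over 30% mitochondrial UMIs, the log2 ratio of ΔTE to WT for Il7r was 1.09 (0.26 to 2.06, 253 against 12 UMIs) from DN2a and 0.74 (0.46 to 1.03) from DN2b. For Il2rb from DN2b it was 2.86 (1.54 to 4.55, 45 against 5 UMIs), and for Il15ra from DN2b 1.02 (0.01 to 2.12, 30 against 12 UMIs). In barcodes over 2000 UMIs from DN1, it was 0.71 (0.21 to 1.21) for Il2rg and 0.93 (0.14 to 1.71, 27 against 33 UMIs) for Il7r. The DN2a pair is uneven, with 518 WT and 4240 ΔTE barcodes over the mitochondrial limit. In the barcodes over 2000 UMIs from DN2a, Il7r and Il4ra went the other way, at -1.11 (-1.96 to -0.27) and -1.08 (-2.06 to -0.10), and Il2rg was at -0.50 (-1.07 to 0.07). The intervals cover counting error only.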

How the results depend on the processing

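The 4 chain calls in ΔTE against WT, summed over the starts, became 7 with at least 300 genes per cell, 7 with at most 1000 UMIs, 13 at 1.2-fold and 2 at 2-fold, and 4 to 5 when 1 well was left out. The 12 calls between starts became 7 at 2-fold and 11 to 13 without 1 well. The 9 group calls became 5 without the library term, 5 with cells thinned to 300 UMIs, and 6 to 9 when 1 library was left out. Why the counts moved was not tested beyond what each setting changes by construction. No chain ratio that was called changed sign. Il2rb stayed past 1.5-fold in all 9 other settings, at 1.54 to 2.99 from DN2a and 2.99 to 3.67 from DN2b, as did Il2rg from DN2b (0.69 to 0.83). Il9r from DN2b was past it in 6 of 9 (0.29 to 1.09), and Il2rb from DN1 to DN2a in WT in 5 of 9. In the group test, Il2rb in ILC/NK-marker cells passed in 13 of 14 settings, Il9r in 9 and Il2rg in 7 (highest adjusted p 0.869 by edgeR or DESeq2), Il2rb and Il21r in myeloid-marker cells in 9 each, and Il2rg and Il7r in stroma-marker cells in 14. Over the 3 starts, the 3 chain calls in ΔTE against WT became 0 without the start term, which leaves the start differences in the spread, and 2 to 3 when 1 start was left out. Il2rb (2.61 to 3.48) and Il7r (0.46 to 0.56) passed in 7 of 8 settings and Il2rg in 2. The 7 calls between starts over both genotypes became 4 with DESeq2. The labels give no replicate numbers shared between groups. Il2rb, Il9r and Il21r, at 0 to 102 UMIs per library, are the chains whose values the depth limits most.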

Other observations

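Cells were also split by whether a UMI of Bcl11b, of Zbtb16, of both or of neither was seen, a split that reads depth as well as expression, since the median UMIs per cell ran from 399 to 706 over the classes. In ΔTE, Il2rb stood at 28.2 CPM (22.1 to 35.5) in the 3921 cells with Zbtb16 alone, 26.6 CPM (12.1 to 50.4) in the 423 with both, 7.57 CPM (3.46 to 14.4) in the 1949 with Bcl11b alone and 9.65 CPM (7.80 to 11.8) in the 18996 with neither. In WT the same classes stood at 6.26 CPM (3.00 to 11.5), 4.42 CPM (0.536 to 16.0), 1.87 CPM (0.688 to 4.08) and 1.52 CPM (0.914 to 2.37). Il2rb was thus higher in ΔTE than in WT within each class. The intervals of the genotypes lay apart in the class with Zbtb16 alone and in the class with neither. They overlapped in the class with Bcl11b alone (9 UMIs in ΔTE, 6 in WT) and in that with both (9 and 2 UMIs). No interval of the ratio was taken within the classes, so these overlaps do not show that a difference was absent. Il7r in ΔTE stood at 183 CPM (159.9 to 209.5) in cells with Bcl11b alone and 136 CPM (122 to 151) in those with Zbtb16 alone. It stood at 156 CPM (117 to 205) with both and 120 CPM (114 to 127) with neither. In WT, Il7r stood at 127 CPM (115 to 140) with Bcl11b alone and 101 CPM (85.9 to 118) with Zbtb16 alone. It stood there at 135 CPM (103 to 173) with both and 95.8 CPM (90.4 to 101) with neither. Libraries of the 3 starts were summed in these classes, so their mix of starts is part of the values.

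Socs1, a feedback inhibitor of the same receptors, stood at 23.0, 58.6 and 67.8 CPM in WT and 29.01, 67.1 and 99.1 CPM in ΔTE for DN1, DN2a and DN2b. Its wells lay above those of WT from DN2b, with a log2 ratio of 0.55 (0.24 to 0.86), under 1.5-fold, while Cish was lower there.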
